A study of Mus musculus with 3264 samples.

Results

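The blood wells described here each hold 1 T-like cell with RNA of Cxcr6, of Rora, or of both. The donors were C57BL/6J mice, whose mononuclear cells from peripheral blood (PBMC) were picked into 8 plates of 96 wells by ALPS, an automated system for live imaging and picking of single cells, after time-lapse imaging. A well was kept with at least 300 detected genes, taken as a T well with counts of at least 2 of Cd3d, Cd3e, Cd3g, Trac, Trbc2, Lat and Lck and none of Cd79a or Cd79b, and chosen with any count of Cxcr6 or Rora. In all, 59 wells met the rule, which is 33.5% of the T wells (exact 95% interval 26.6 to 41%), and are called Cxcr6/Rora wells. The other T wells, with neither gene, are the comparison: 32 of them had a count of Cd8a or Cd8b1 and 85 did not. The remaining wells with enough genes were 90 B wells, 4 wells with genes of both kinds, 29 with NK markers and 40 others, and the labels name 3264 wells in the whole series, most of them from a cell line mixture. All groups share strain, source and picking method. No animal, age or sex is named in the labels, so each group of single cells counts as 1 sample, no test was run, and intervals cover counting error only.

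Cxcr6 encodes the receptor for the chemokine CXCL16 and is known from effector, tissue-homing and innate-like T cells. Rora encodes the nuclear receptor ROR alpha, which is needed for type 2 innate lymphoid cells and is also found in helper T cells and in the circadian clock. Naive T cells, by contrast, carry the lymph node homing receptor CCR7 and the factors KLF2, TCF-1 (Tcf7) and LEF1, while effector, memory and invariant T cells carry CD44, ID2, CXCR3 or PLZF (Zbtb16). Gata3 and Cxcr3 are markers given for these wells that the choice did not use. Earlier results of these data were known when the wells were chosen, so the levels of Gata3 and Cxcr3 are a description and no separate support.

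The starts of the 4 marker genes are shown because the first pair defines the wells and the other pair was given as markers for them. Each line gives 250 bases before and 50 after the start in RefSeq (build GRCm38.p6), 5' to 3' on the gene's strand, and capitals mark the motif matches described after them.
Cxcr6, chr9:123806227-123806526, plus strand: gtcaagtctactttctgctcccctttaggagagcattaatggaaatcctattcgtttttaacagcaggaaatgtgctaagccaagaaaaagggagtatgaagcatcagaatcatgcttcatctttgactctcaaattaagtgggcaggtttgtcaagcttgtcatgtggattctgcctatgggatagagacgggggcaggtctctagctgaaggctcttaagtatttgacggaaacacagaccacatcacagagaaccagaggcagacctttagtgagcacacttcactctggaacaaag
Rora, chr9:68653536-68653835, plus strand: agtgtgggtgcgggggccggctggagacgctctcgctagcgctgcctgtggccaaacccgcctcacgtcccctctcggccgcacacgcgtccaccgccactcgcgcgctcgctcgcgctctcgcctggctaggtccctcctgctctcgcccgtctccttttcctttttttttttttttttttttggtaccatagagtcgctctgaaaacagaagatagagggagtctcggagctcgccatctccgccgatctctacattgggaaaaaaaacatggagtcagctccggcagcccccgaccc
Gata3, chr2:9878551-9878850, minus strand: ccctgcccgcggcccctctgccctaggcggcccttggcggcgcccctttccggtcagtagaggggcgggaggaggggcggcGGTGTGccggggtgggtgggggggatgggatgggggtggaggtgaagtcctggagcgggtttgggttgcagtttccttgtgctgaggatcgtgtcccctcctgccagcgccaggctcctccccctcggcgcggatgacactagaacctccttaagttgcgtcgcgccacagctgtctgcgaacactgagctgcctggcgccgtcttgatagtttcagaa
Cxcr3, chrX:101734098-101734397, minus strand: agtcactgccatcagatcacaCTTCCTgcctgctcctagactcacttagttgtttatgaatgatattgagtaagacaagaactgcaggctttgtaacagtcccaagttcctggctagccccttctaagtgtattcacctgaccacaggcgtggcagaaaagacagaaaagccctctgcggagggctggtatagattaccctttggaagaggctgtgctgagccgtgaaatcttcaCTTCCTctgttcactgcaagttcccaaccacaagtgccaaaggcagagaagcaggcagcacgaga

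Letters were searched on both strands for 4 kinds of motif. The ROR half-site was spelled AGGTCA. The core bound by T-box factors was spelled GGTGTG. The site of GATA factors was spelled AGATAA. The core of the ETS family was spelled AGGAAG. Matches of different motifs do not overlap in these windows. GGTGTG stood in the Gata3 window, its first base at position -169 from the start. AGGAAG stood on the other strand of the Cxcr3 window at -229 and -15, seen as CTTCCT in the printed strand. None of the 4 motifs stood in the Cxcr6 or Rora window. Among 32817 RefSeq start windows of the same length, 16.3% held the ROR, 19.1% the T-box, 11.2% the GATA and 35.4% the ETS letters, so these matches are a description only. In the GENCODE annotation of GRCm38, Cxcr6 (chr9:123806475-123811760, plus strand) lies within the span of Fyco1 on the opposite strand. Whether the counting used strand is not given in the sources used here. Fyco1 itself had 2 counts in the Cxcr6/Rora wells and 5 in the other T wells.

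Most of the Cxcr6/Rora wells had both genes. Both were counted in 39 of 59 wells (66.1%, 52.6 to 77.9%), Cxcr6 alone in 10 and Rora alone in 10. Cxcr6 had 150 counts in 49 wells, with a lowest of 0, a median of 2 and a highest of 10 per well. Summed over the wells this was 844.02 CPM (exact Poisson 95% interval 714.36 to 990.4), where CPM is a gene's counts per 1000000 counts of all genes. Rora was also seen in 49 wells, with a lowest of 0, a median of 2 and a highest of 6 counts, and summed to 658.3 CPM (544.46 to 788.997). These values chose the wells and are given as a description. Just inside the threshold stood 11 wells with a single count of the 2 genes together. Another 18 wells had 2 to 4 and 30 had 5 or more, with a median sum of 5 and a highest of 12. Just outside stood the other T wells, all at 0 for both. Of the T genes of the rule, exactly 2 were counted in 10 Cxcr6/Rora wells and in 29 other T wells.

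**Figure D1:**
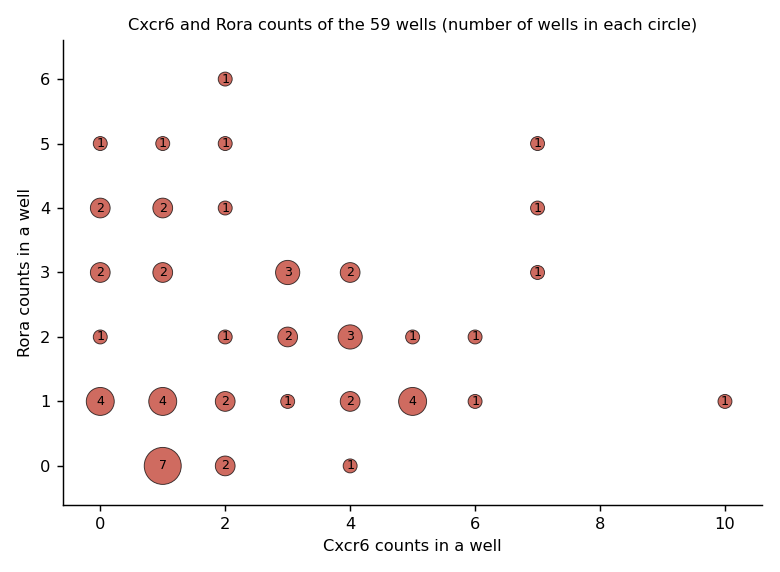
Counts of Cxcr6 (x axis) and Rora (y axis) in each of the 59 chosen wells, where the number in each circle, and its area, give the wells at that pair of counts. The 39 wells with both genes fill the inner part of the grid, and the 10 wells with each gene alone lie along the axes.

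Both genes had 0 counts in B wells, at a lower depth, which does not show that B cells lack their RNA. No B well, which is one with Cd79a or Cd79b and fewer than 2 of the T genes, had a count of Cxcr6 or Rora (0 of 90, which allows a share of wells with a count of up to 3.33%), at a median of 1859 counts per well. The Cxcr6/Rora wells had a median of 2842 counts (1548 to 6488), against 2212 counts (highest 6755) in the other T wells, and a mean of 1239.7 detected genes per well against 1018.7. Depth moved with membership: 40 of the 88 T wells at or above the median total of 2413 counts were Cxcr6/Rora wells (45.5%), against 19 of the 88 below it (21.6%). Its part in the differences was not tested, and shares of wells are therefore also given after thinning each well to 1500 counts, which kept all 59 Cxcr6/Rora wells and left out 9 of the other T wells.

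Gata3 and Cxcr3 were both frequent. Gata3, which encodes a zinc finger factor needed for T cell development and type 2 responses, ran from 0 to 9 counts per Cxcr6/Rora well with a median of 2, against 0 to 4 with a median of 0 in the other T wells. It was counted in 45 of 59 Cxcr6/Rora wells (76.3%, 63.4 to 86.4%) and in 25 other T wells (21.4%, 14.3 to 29.9%). The ranges overlap, but the middle well of the Cxcr6/Rora group had Gata3 and that of the other T wells did not. Summed levels of 827.1 CPM in the Cxcr6/Rora wells and 142.8 CPM in the other T wells gave a ratio of 5.79 (exact binomial 95% interval 4.06 to 8.44). Cxcr3, the receptor for interferon-induced chemokines and a mark of type 1 effector cells, had up to 3 counts in 25 Cxcr6/Rora wells (42.4%) and up to 2 counts in 4 other T wells (3.42%), a ratio of 11.7 (4.57 to 38.02). No B well had a count of Gata3 or Cxcr3. After thinning, the shares were 62.7% and 15.9% for Gata3 and 25.5% and 1.77% for Cxcr3. Both genes were higher on all 7 plates that held at least 3 wells of each group. Of the 25 Cxcr6/Rora wells with Cxcr3, 20 also had Gata3.

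Over all 3050 genes with at least 20 counts summed over both groups, genes of the rule apart, 9.97% were at least 2-fold higher and 8.89% at least 2-fold lower in the Cxcr6/Rora wells. The median log2 ratio was -0.0066, over 177721 counts in the Cxcr6/Rora wells and 280111 in the other T wells. "Higher" and "lower" of a gene in a list below mean past this 2-fold limit, and the same percentages are the background for each list. Since the wells were chosen on RNA of the same cells, these counts describe the contrast and do not test it. A gene can also reach the limit of 20 counts through 1 group alone, so the counts and medians of a list hold for its compared members and support no statement about the whole list.

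Effector and innate-like genes with the highest ratios were counted in at most 3 of the other T wells. Zbtb16, which encodes PLZF, the factor that directs invariant T cell development, had 24 counts in 16 Cxcr6/Rora wells (highest 4) and 1 count in 1 other T well, a ratio of 37.8 (6.17 to 1556). Cd44, the hyaluronan receptor of antigen-experienced T cells, had 31 counts in 22 Cxcr6/Rora wells and 3 counts in 3 other T wells, a ratio of 16.3 (5.08 to 83.3). Bhlhe40, a basic helix-loop-helix factor of cytokine-producing T cells, had 19 counts in 10 Cxcr6/Rora wells and 1 count in 1 other T well. Rbpj, which encodes the nuclear partner of Notch, had 20 counts in 14 Cxcr6/Rora wells and 2 counts in 2 other T wells. Plac8, of the innate-like list, had 22 counts in 10 Cxcr6/Rora wells and 2 counts in 2 other T wells, but was also counted in 36 of the 90 B wells. For these 5 genes the median well of either group had no count, so the ratios rest on the wells in which the gene was seen.

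Gbp7, Gbp3, Bcl2a1b and Bcl2a1d were each counted in about as many Cxcr6/Rora wells as not. Gbp7, an interferon-inducible GTPase, was counted in 35 of 59 Cxcr6/Rora wells (59.3%, 45.7 to 71.9%; 87 counts, median 1, highest 6) and in 6 other T wells (5.13%, 1.90 to 10.8%; 7 counts, median 0, highest 2). The ratio was 19.6 (9.11 to 50.2), and after thinning the shares were 44.98% and 3.10%. Its relative Gbp3 had 82 counts in 30 Cxcr6/Rora wells and 5 counts in 2 other T wells, a ratio of 25.8 (10.6 to 81.7). Gbp2, of the same protein family and below the count limit, had 10 counts in 8 Cxcr6/Rora wells and 3 counts in 3 other T wells. Gbp7 was also counted in 1 of 90 B wells and in 44.8% of the NK-marker wells, which hold 2 or more NK markers and fewer than 2 T genes. Bcl2a1b and Bcl2a1d, anti-apoptotic genes of the BCL2 family, were counted in 35 Cxcr6/Rora wells each and in none of the other T wells. Their 38.8 and 37.3 counts were at least 20.4-fold and 19.6-fold higher, with the floor of 3 counts over the other T wells. The 2 genes are near-identical copies with shared, fractional counts, so which copy was transcribed is uncertain. Fam129a, a gene of the stress response, had 44 counts in 24 Cxcr6/Rora wells and 2 counts in 2 other T wells. Pde4a, a cyclic AMP phosphodiesterase, had 23 counts in 15 Cxcr6/Rora wells and 2 counts in 2 other T wells. Fam129a, Bcl2a1b, Bcl2a1d and Gbp7 were higher on 7 of 7 plates, and Gbp3 and Pde4a on 6.

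Several of the genes with the lowest ratios belong to the naive state or to recirculation. Actn1, in the naive list, which encodes the cytoskeletal crosslinker alpha-actinin 1, had 13 counts in 4 Cxcr6/Rora wells (median 0, highest 4) and 320 counts in 97 other T wells (median 2, highest 10). Its summed level was 73.1 CPM in the Cxcr6/Rora wells and 1142.4 CPM in the other T wells, a ratio of 0.064 (0.034 to 0.11). The 4 Cxcr6/Rora wells with Actn1 stood on plates 7 and 8, and the other 5 plates compared had no count. Klf2, the factor that maintains S1pr1, had 8 counts in 6 Cxcr6/Rora wells (median 0) and 127.5 counts in 74 other T wells (median 1), a ratio of 0.099 (0.042 to 0.20). Il6ra, the interleukin-6 receptor, had 5 counts in 4 Cxcr6/Rora wells and 81 counts in 55 other T wells. Rasa3, a GTPase-activating protein for Ras and Rap1, had 4 counts in 3 Cxcr6/Rora wells and 84 counts in 54 other T wells. These 4 genes were lower on 7 of 7 plates.

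The remaining genes named at the bottom were thinner in counts. St8sia6 and St6gal1, sialyltransferases, each had 1 count in the Cxcr6/Rora wells, against 32 and 22 counts in 25 and 19 other T wells. Cd9, a tetraspanin, and Arl5c, a small GTPase, also had 1 count each in the Cxcr6/Rora wells, against 31 and 28 counts in 25 and 22 other T wells. Adk, adenosine kinase, had 1 count in the Cxcr6/Rora wells and 20 in the other T wells, and Usp28, a deubiquitinase, had 2 and 29. Their ratios ran from 0.049 for St8sia6 to 0.11 for Usp28, and the widest interval among them, that of Adk, ended at 0.49.

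**Figure D2:**
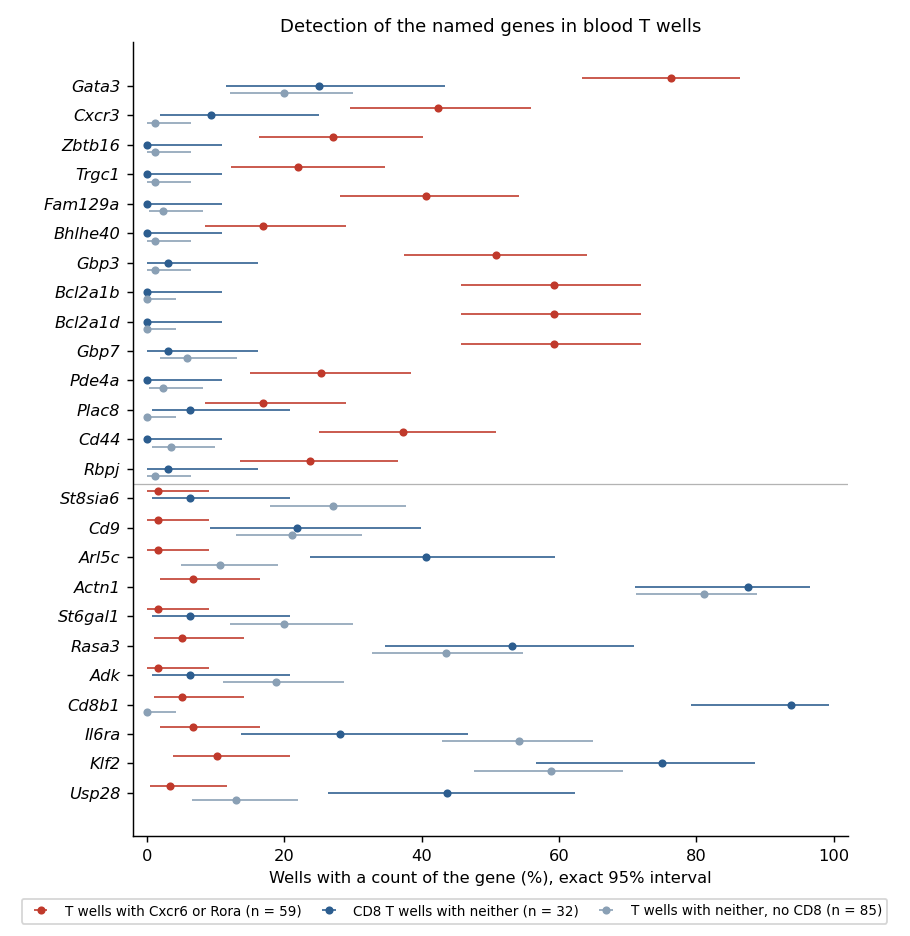
Share of wells with a count (x axis, percent, with exact 95% intervals) for Gata3, Cxcr3 and the named genes, in the 59 Cxcr6/Rora wells, the 32 CD8 T wells with neither gene and the 85 T wells with neither gene and no CD8. Above the grey line the Cxcr6/Rora wells lie to the right of both comparison groups, and below it, to the left of at least one.

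As a list, the naive and recirculation genes were lower. Of 18 genes, 14 had enough counts, 11 were lower and none was higher, with a median log2 ratio of -1.46 against -0.0066 over all genes compared. Ccr7, the receptor that brings T cells into lymph nodes, had 8 counts in 4 Cxcr6/Rora wells and 77 counts in 53 other T wells. Lef1, a factor of the naive state, was counted in 10 Cxcr6/Rora wells, at a summed 67.5 CPM, and in 66 other T wells, at 385.6 CPM. S1pr1, the receptor for exit from lymph nodes, had 15 counts in 8 Cxcr6/Rora wells and 72 counts in 56 other T wells. Smaller differences were seen in Tcf7, counted in 62.7% of Cxcr6/Rora wells and 86.3% of other T wells (ratio 0.414, 0.327 to 0.519), and in Il7r, the interleukin-7 receptor, counted in 29 and 97 wells (0.446, 0.351 to 0.561). Satb1, a chromatin organiser, was the member with the ratio nearest to 1, with summed levels of 967.8 and 940.7 CPM (1.03, 0.844 to 1.25). Without plate 7 the list's median was -2.18, over 13 genes.

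Effector surface genes were more often higher than lower, though not after thinning to 1000 counts. Of 20 genes, 14 were compared, 8 were higher and 3 lower, with a median log2 ratio of 1.54. Itgb1, the integrin beta 1 chain, had 77 counts in 25 Cxcr6/Rora wells and 23 counts in 16 other T wells, a ratio of 5.28 (3.28 to 8.81). Ly6a, which encodes Sca-1, had 41.8 counts in 24 Cxcr6/Rora wells and 13.5 counts in 13 other T wells. Il2rb, the beta chain of the interleukin-2 and interleukin-15 receptors, had 19 and 8 counts. Ly6c2 had 19.2 counts in 14 Cxcr6/Rora wells and 6 counts in 8 other T wells, a ratio of 5.04 (1.94 to 15.4). Its relative Ly6c1 was lower, and Ly6c2 carries fractional counts, so the split between these 2 genes is uncertain. The 3 lower genes were Ly6c1, a glycoprotein of memory-phenotype CD8 T cells, with 14 counts in 8 Cxcr6/Rora wells and 84 in 33 other T wells, Itga4, the integrin alpha 4 chain, with 25 and 97 counts, and Cd7, with 1 and 23. After thinning to 1500 counts, 8 of these genes could be compared, 3 were higher and 1 was lower, with a median of 0.43. After thinning to 1000 counts the direction of the median turned, at -0.40 over 6 genes, of which 2 were higher and 2 lower. Without plate 1 the median was 0.78 over 12 genes.

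The transcription factors of effector and memory cells had a median log2 ratio of 2.28, with 5 of 6 genes compared higher and none lower. Id2, an inhibitor of E proteins that innate and effector lymphocytes share, ran from 0 to 8 counts with a median of 1 in the Cxcr6/Rora wells and from 0 to 5 with a median of 0 in the other T wells. It was counted in 44 Cxcr6/Rora wells (74.6%) and 10 other T wells (8.55%), a ratio of 8.35 (5.15 to 14.2). Ikzf2, which encodes Helios, had 35 counts in 21 Cxcr6/Rora wells and 19.5 counts in 14 other T wells. Maf, below the count limit, had 18 counts in 10 Cxcr6/Rora wells and none in the other T wells. Tbx21, which encodes T-bet, the main type 1 factor, was also below the limit and had 10 counts in 10 Cxcr6/Rora wells and 3 counts in 3 other T wells. Further factors below the limit went both ways. Eomes had 1 count in the Cxcr6/Rora wells and 8 in the other T wells, Zeb2 1 and 3, and Nfil3 0 and 2. Hopx had 14 and 4, and Batf 5 and 1. Runx3, a factor of CD8 and type 1 cells, had 38 and 43 counts, a ratio of 1.39 (0.876 to 2.21). The list's median rests on few genes. It was 1.05 after thinning over 4 genes, ran from 1.22 to 2.21 with a plate left out, and was above 1.5 only without plate 5.

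Type 1 genes beyond Cxcr3 centred on the interleukin-18 receptor. Of 13 genes, 4 were compared and 3 were higher, with a median log2 ratio of 2.97. Il18r1, the ligand-binding chain, had 52 counts in 25 Cxcr6/Rora wells (highest 12) and 9 counts in 7 other T wells (highest 2), a ratio of 9.11 (4.45 to 21.02). Il18rap, the accessory chain, had 47 counts in 23 Cxcr6/Rora wells and 11 counts in 5 other T wells, a ratio of 6.73 (3.44 to 14.4). Either chain was counted in 35 Cxcr6/Rora wells and 9 other T wells. Ifng, interferon gamma, had 17 counts in 8 Cxcr6/Rora wells and none in the other T wells, below the count limit. Ccl5, a chemokine of memory and cytotoxic cells, was counted in 29 Cxcr6/Rora wells (49.2%) and 11 other T wells (9.40%), yet its summed levels were 509.2 and 396.3 CPM, a ratio of 1.29 (0.963 to 1.71). A single other T well held 38 counts. Of 11 type 2 genes only Gata3 was compared, and Il17rb, the interleukin-25 receptor, had 6 counts in 5 Cxcr6/Rora wells and none in the other T wells. No type 17 gene of 10 reached the limit, and the whole list had 7 counts in the Cxcr6/Rora wells and 2 in the other T wells.

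Invariant and innate-like T cell genes had the highest median among lists with more than 3 genes compared. The list of NK receptors and NK cell genes was above it at 3.48, with 3 of 20 genes compared and all 3 higher. Of the 15 invariant and innate-like genes, 7 were compared, 6 were higher and 1, Cd7, was lower, with a median log2 ratio of 3.19. Il18r1 is also in the type 1 list, and Ly6c2 and Cd7 are in the effector surface list. Below the count limit, Slamf6 had 6 counts in the Cxcr6/Rora wells and 13 in the other T wells, Klrb1b 6.5 and 10, and Fcer1g 0 and 4. Itga1 had 9 and 0, Izumo1r 5 and 2, and Cd160 2 and 0. Klrb1c, which encodes NK1.1, had 42.5 counts in 22 Cxcr6/Rora wells (highest 7) and 6 counts in 4 other T wells (highest 2), a ratio of 11.2 (4.73 to 32.1). Icos, the inducible costimulator, ran from 0 to 8 counts with a median of 1 in the Cxcr6/Rora wells and from 0 to 3 with a median of 0 in the other T wells. It was counted in 37 and 17 wells, a ratio of 5.41 (3.37 to 9.03). Klrb1c or Zbtb16 was counted in 30 Cxcr6/Rora wells and 5 other T wells, and both together in 8 and 0. The joining segment Traj18, used by the invariant receptor of type I NKT cells, was counted in 8 of 59 Cxcr6/Rora wells (13.6%, 6.04 to 24.98%) and 9 other T wells (7.69%, 3.58 to 14.1%), whose intervals overlap. The variable segments Trav11, Trav11d and Trav11n had 0.33 counts each, each in 1 Cxcr6/Rora well, and 0 in the other T wells. These are fractional counts, so their split between copies is uncertain. Without plate 7 the median was 2.48 over 5 genes, without plate 8 it was 3.84 over 4, and without the T wells that hold 2 or more NK markers it was 4.20 over 7 genes.

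Nearly all Cxcr6/Rora wells had RNA of an alpha or beta receptor chain constant gene. Trac, Trbc1 or Trbc2 was counted in 58 of 59 Cxcr6/Rora wells and in all but 4 of the other T wells, although Trac and Trbc2 were among the genes of the rule. Trac itself was counted in 39 Cxcr6/Rora wells (66.1%) and 57 other T wells (48.7%). Beta chain RNA was not confined to T wells, since Trbc1 was counted in 13 of the 29 NK-marker wells (44.8%). Trdc, the delta chain constant gene, had no count in the Cxcr6/Rora wells (0 of 59, which allows a share of wells with a count of up to 5.08%) and 12 counts in 7 other T wells. Gamma chain constant genes nevertheless had counts. Trgc1 to Trgc4 were counted in 17 Cxcr6/Rora wells (28.8%, 17.8 to 42.1%) and 3 other T wells (2.56%, 0.532 to 7.31%), with 38.99 and 5 counts. All 17 also had Trbc1 or Trbc2, and 8 had Trac. Trgc1 alone had 22.8 counts in 13 Cxcr6/Rora wells and 1 count in 1 other T well, a ratio of 35.98 (5.84 to 1482.7), and 1 well held 8 of them. The gamma constant genes are similar in sequence and carry fractional counts, so their split between copies is uncertain.

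Coreceptor RNA was scarce. Cd8b1 had 3 counts in 3 Cxcr6/Rora wells and 54.5 counts in 30 other T wells, a ratio of 0.087 (0.017 to 0.27), and Cd8a had 1 and 20 counts. Cd4 had 5 counts in 5 Cxcr6/Rora wells and 20 counts in 17 other T wells, a ratio of 0.394 whose interval of 0.116 to 1.08 includes 1. Thus 8 of 59 Cxcr6/Rora wells had any coreceptor count, against 49 other T wells, 32 of which define the CD8 group. Among other T lineage genes the differences went both ways. Of 20 compared, 8 were higher and 3 lower, with a median log2 ratio of 0.61. Thy1 was counted in 37 Cxcr6/Rora wells, at a summed 590.8 CPM, and in 31 other T wells, at 173.1 CPM, a ratio of 3.41 (2.41 to 4.90). Cd5, an inhibitor of receptor signalling, had 19 counts in 14 Cxcr6/Rora wells and 10 counts in 7 other T wells. Cd247, the zeta chain of the receptor complex, was lower, with 140.7 CPM in the Cxcr6/Rora wells, 14 of which had a count, and 364.1 CPM in the other T wells, 62 of which did (ratio 0.386, 0.239 to 0.603), and the other 2 lower genes were Tcf7 and Lef1.

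Costimulatory receptors were higher in 5 of 7 genes compared, with a median log2 ratio of 2.07. Tnfrsf1b, the second TNF receptor, had 23 counts in 17 Cxcr6/Rora wells and 7 counts in 7 other T wells. Tnfrsf18, which encodes GITR, had 19 counts in 16 and 6 counts in 6. Cd28, the receptor for CD80 and CD86, had 84 and 89 counts, a ratio of 1.49 (1.09 to 2.03). GITR, Helios and Il2ra are also regulatory T cell genes. Il2ra had 19 counts in 11 Cxcr6/Rora wells and none in the other T wells, while Foxp3, the defining factor, had no count in the Cxcr6/Rora wells (0 of 59, which allows a share of wells with a count of up to 5.08%) and 1 count in the other T wells. Of 12 cytokine receptor genes compared, 4 were higher and 2 lower, with a median of -0.097. The higher ones were the 2 interleukin-18 receptor chains, Il2rb and Il2rg, and the lower ones Il7r and Il6ra.

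Cytotoxic granule and death genes were higher in part. Of 13 genes, 6 were compared, 4 were higher and none lower, with a median log2 ratio of 1.48. Ctsw, the cathepsin of cytotoxic lymphocytes, ran from 0 to 8 counts with a median of 2 in the Cxcr6/Rora wells and from 0 to 3 with a median of 0 in the other T wells, a ratio of 3.49 (2.56 to 4.82). Nkg7 had 32 counts in 21 Cxcr6/Rora wells and 12 counts in 5 other T wells, and Fasl, the ligand of FAS, 21 counts in 17 and 4 counts in 3. Gzma, granzyme A, had 7 counts, all in 1 Cxcr6/Rora well, and 15 counts in 5 other T wells. Prf1, Gzmk and Gzmm had no count in either group. Below the count limit, Gzmb had 3 counts in the Cxcr6/Rora wells and 0 in the other T wells, Serpinb6b 4 and 0, Cst7 1 and 1, and Serpinb9 2 and 4. Immediate early and activation genes had a median of 0.78, with 5 of 15 higher and none lower. Tnfaip3, an inhibitor of NF-kappa B, had 35 counts in 20 Cxcr6/Rora wells and 6 counts in 6 other T wells, and Rgs1, a regulator of chemokine receptor signalling, had 21 counts in 17 and 4 counts in 2.

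Other families are given by their counts and medians of the log2 ratio. Of 6 interferon-stimulated genes compared, Gbp7 was higher and none lower, with a median of 0.43. The MHC class I list had 2 of 10 higher and none lower (median 0.52). Nuclear receptors other than Rora had none of 4 higher or lower (median 0.025). S100 proteins, annexins and galectins had 4 of 10 higher and 1 lower (median 0.55). Among them S100a11 had 33 counts in 25 Cxcr6/Rora wells and 7 counts in 5 other T wells, while Emp3 was the lower one with 8 and 43. G2/M and replication genes had 2 of 7 higher and none lower (median -0.15), but 19 of the 20 Top2a counts came from 1 Cxcr6/Rora well. Of the 4 chemokine genes compared, Cxcr3 and Cxcr4 were higher and Ccr7 was lower (median 1.01). Cxcr4, the receptor for CXCL12, had 56 counts in 26 Cxcr6/Rora wells and 28 counts in 23 other T wells. Ccr2, an inflammatory homing receptor, had 16 counts in 11 Cxcr6/Rora wells and 1 count in the other T wells, below the limit.

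**Figure D3:**
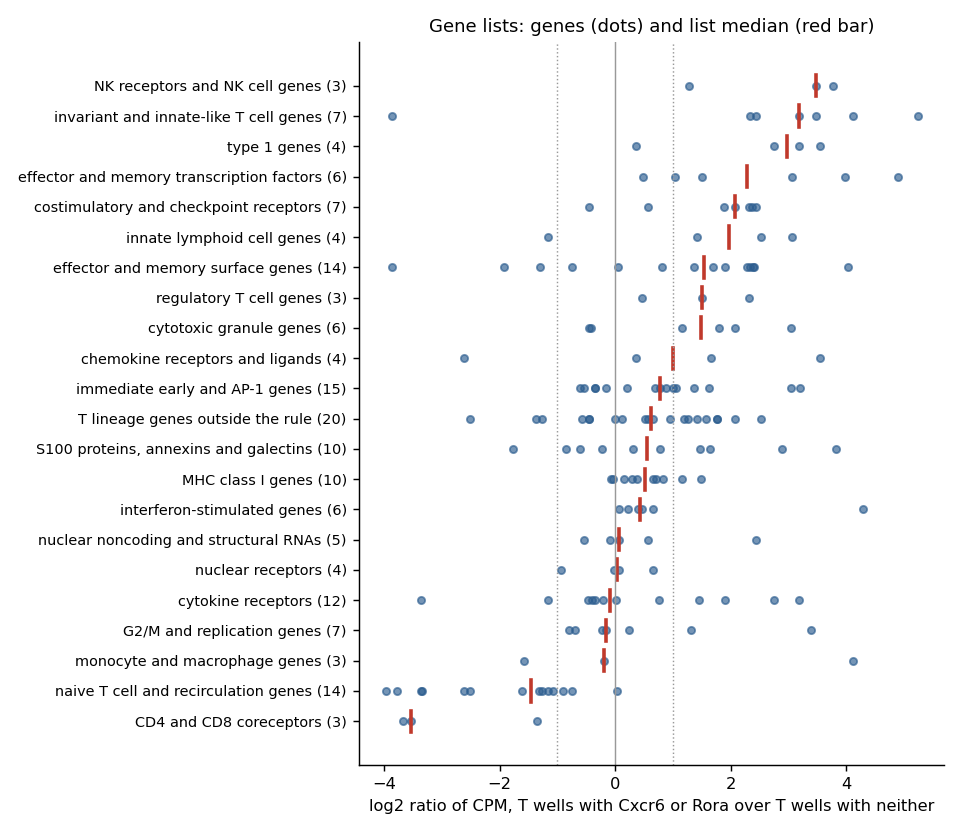
Log2 ratio of CPM, Cxcr6/Rora wells over other T wells (x axis), for each gene with enough counts (dots), by gene list, with the number of genes compared in brackets and the list median as a red bar. Dotted lines mark 2-fold. The coreceptor and naive lists have medians of -3.53 and -1.46. The NK receptor, invariant, type 1 and effector factor lists have 3.48, 3.19, 2.97 and 2.28.

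In the Cxcr6/Rora wells most genes of the short marker lists of other blood cells were at 0, while the longer NK and monocyte lists had counts. Of 9 NK markers, Ncr1, Klra8, Klra4, Klri2, Tyrobp and Fcer1g had no count in the 59 Cxcr6/Rora wells, and the list summed to 51.5 counts (0 to 7 per well, median 0), mainly Klrb1c. The other T wells had 38.3 counts of the list (0 to 11.5 per well, median 0), with none of the 9 at 0, and the 29 NK-marker wells, with 2 or more of these markers and fewer than 2 of the T genes, had 232.75 (2 to 17). Any NK marker was counted in 24 Cxcr6/Rora wells and 6 other T wells, and any other than Klrb1c in 5 and 5. At least 2 NK markers were counted in 4 Cxcr6/Rora wells and 5 other T wells. Of NK receptor genes, Klrc1, which encodes NKG2A, had 26 counts in 13 Cxcr6/Rora wells and none in the other T wells, at least 13.7-fold higher, and was counted in 37.9% of the NK-marker wells. Without the wells that hold 2 or more NK markers, 10.4% of the genes compared were higher and 8.80% lower, and the type 1 list's median was 3.57. The neutrophil markers S100a8, S100a9 and Retnlg, the dendritic cell markers Siglech, Flt3 and Xcr1, the platelet markers Pf4 and Ppbp, and Ms4a1 of B cells had no count in either group. The longer lists of these cells summed to few counts: 4 and 2 for neutrophils, 10 and 15 for dendritic cells, 0 and 2 for platelets in the Cxcr6/Rora wells and the other T wells. Of the monocyte markers, Lyz2, Csf1r, Cd14 and Lst1 had no count in either group, while Ccr2, which T cells can also carry, had 16 counts in 11 Cxcr6/Rora wells and 1 count in 1 other T well. Of the 4 innate lymphoid markers, Il1rl1, Kit and Arg1 had no count in either group and Il17rb had 6 counts in 5 Cxcr6/Rora wells and none in the other T wells. The longer innate lymphoid list had 4 of 12 genes compared, with Gata3, Id2 and Lmo4 higher, Il7r lower and a median of 1.98. Lmo4, a LIM-only cofactor, had 42.5 counts in 27 Cxcr6/Rora wells and 25 counts in 20 other T wells. Apart from leaving out the wells with NK markers, the part of other cells in the differences was not tested.

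The state of single wells was read from all 18 genes of the naive list and all 62 of the effector, type 1 and innate-like lists, whatever their counts. Cxcr6/Rora wells had a median of 4 naive genes (1 to 12) and 11 effector genes (1 to 21), against 9 (1 to 13) and 4 (0 to 20) in the other T wells. The lists differ in length, so the 2 numbers of a well are read against those of other wells. These numbers were not thinned, although the median totals were 2842 counts in the Cxcr6/Rora wells and 2212 in the other T wells. The part of depth in them was not tested. More effector than naive genes were counted in 55 of 59 Cxcr6/Rora wells and in 12 other T wells. The groups overlap: 3 Cxcr6/Rora wells had more naive genes, 2 of them with Rora alone and 1 with Cxcr6 alone. Of the 39 wells with both genes, 38 had more effector genes and 1 had as many of each. The CD8 T wells with neither Cxcr6 nor Rora had medians of 9 naive and 5 effector genes, and the T wells with neither and no CD8 had 8 and 4. With only the 14 naive and 28 effector genes that had at least 20 counts over both groups, more effector genes were counted in 55 Cxcr6/Rora wells and 12 other T wells. These are part of the same genes in the same wells. Some reached the limit through 1 group, such as Zbtb16 with 24 and 1 counts and Actn1 with 13 and 320, so this is no separate support.

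**Figure D4:**
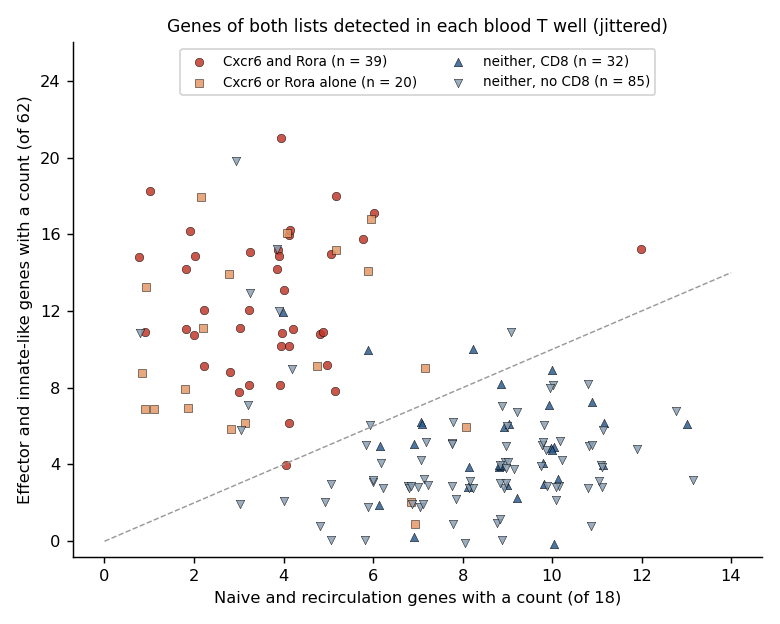
Number of naive genes (x axis, of 18) and of effector and innate-like genes (y axis, of 62) with a count in each T well, with points moved slightly at random to separate them and a dashed line where both numbers are equal. Of 59 Cxcr6/Rora wells, 55 lie above the line, and 12 of the other T wells do.

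The wells with both genes and those with 1 of them differed in depth as well as in RNA. Wells with both had a median of 2895 counts, those with Cxcr6 alone 2175 and those with Rora alone 2150. Gbp7 was counted in 29 of the 39 wells with both, and in 3 of the 10 wells with either gene alone. Id2 was counted in 33 wells with both, 5 with Cxcr6 alone and 6 with Rora alone. Gata3 was counted in 32, 7 and 6 wells of these kinds, and Cxcr3 in 16, 6 and 3. Actn1 was counted in 1, 1 and 2 of them, against 82.9% of the other T wells. With 10 wells each, the wells with 1 gene cannot be ranked against each other, and the part of depth was not tested.

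The share of Cxcr6/Rora wells ran from 1 of 18 T wells on plate 6 (5.56%, 0.141 to 27.3%) to 10 of 15 on plate 1 (66.7%, 38.4 to 88.2%) and 8 of 12 on plate 2 (66.7%, 34.9 to 90.1%). The intervals of plates 1 and 6 do not overlap. The labels do not say whether plates differ in animal or day. Compared within plates, 9.18% of genes were higher and 9.64% lower, and the naive list's median was -1.44. A structural RNA moved with both group and plate. Rn4.5s, the 4.5S RNA of rodents, made up a median of 1.09% of the counts of a Cxcr6/Rora well (0 to 25.4%), against 0.445% in the other T wells (0 to 7.82%). Over the summed counts it was 4.95% in the Cxcr6/Rora wells and 0.912% in the other T wells, a ratio of 5.43 (5.19 to 5.68). Rn4.5s was higher on 6 of 7 plates, with the widest gap on plate 7, at 76877.5 CPM in the Cxcr6/Rora wells and 7142 CPM in the other T wells, and was lower on plate 5, at 5262 and 5570 CPM. The ribosomal RNA Rn45s took a median of 20.7% of the counts of a Cxcr6/Rora well and 21.9% of those of another T well. With both RNAs left out of the totals, 10.8% of genes were higher and 7.74% lower.

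**Figure D5:**
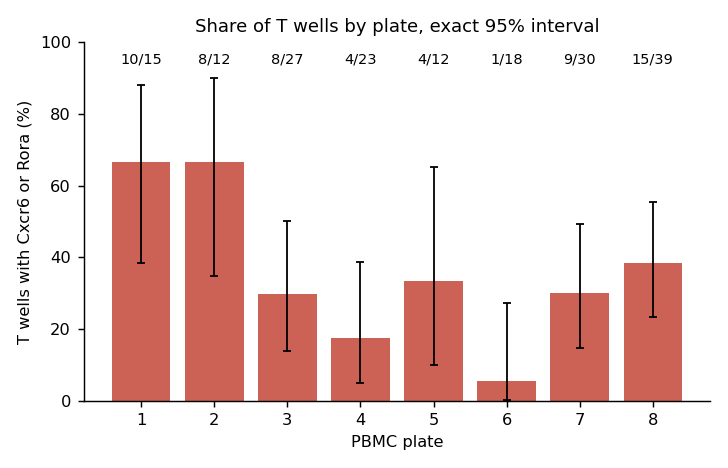
Share of T wells with Cxcr6 or Rora on each of the 8 PBMC plates (bars, percent, with exact 95% intervals), with wells over T wells printed above. Plates 1 and 2 stand at 66.7% and plate 6 at 5.56%.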

How the data were processed

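RNA of single PBMC was reverse transcribed with a poly-T primer that carries a molecular barcode. The deposited values are expected counts of molecules per gene and well that the authors made and did not scale between wells, and 5.15% of the positive values were not whole. The submitters' processing notes name bcl2fastq, STAR and the mm10 genome. Which counter, annotation and strand setting were used, and how wells were filtered, is not given in the sources used here. ERCC spike-in RNA is part of the protocol, but no ERCC or mitochondrially encoded row was listed. Of 768 PBMC wells named by the labels, 346 were listed, 339 had at least 300 genes and 176 were T wells, 59 of them with Cxcr6 or Rora and 117 with neither.

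Counts were summed over the wells of a group, scaled to CPM and compared as ratios among 3050 genes with at least 20 counts over both groups, of which 304 were at least 2-fold higher and 271 at least 2-fold lower. Ratios have exact conditional binomial, shares exact Clopper-Pearson and CPM exact Poisson 95% intervals, all for counting error only, since PCR and well-to-well variation are not in them. A gene at 0 in a group was set to 3 counts over the group. Where no well had a count, the limit given is 3 wells of the total, which bounds wells with a count at this depth and not cells that express the gene. Thinning rounded the values and drew 1500 of a well's counts (seed 1), and thinned shares are expected values. Work was done in python 3.11.15 with numpy 2.4.6 and pandas 2.3.3 for sums, scipy 1.17.1 for intervals and matplotlib 3.10.9 for plots. The ratios and intervals were also run on simulated counts with known fold changes. Those counts were drawn without well-to-well variation, as the intervals assume, so that run cannot show how the intervals hold in real wells.

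Named genes are the 12 highest and 12 lowest ratios with a count in at least 15% of the wells of the higher group and the same direction in the mean CPM over wells, without predicted or Rik symbols, plus members of the 33 gene lists. The values of some named or marker genes are not reported here. The members and the lists were chosen with earlier results of these data known. Ratios set against other wells of the same table describe a choice made on these cells, so no p-value is given. Alternatives were other rules for T wells and members, thinning, other totals, equal weight per well, ratios within plates, each plate left out and other count limits. Doublets were not called. A well that held a T and a B cell falls outside the T wells only if Cd79a or Cd79b was counted in it, and 4 wells had both kinds of gene. No 2 wells had identical values.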

Additional observations from a re-analysis of the deposited data

Results flagged for a closer look

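Cxcr6 or Rora was also counted in 12 wells that are neither T nor B wells by the rule, of 73 such wells (16.4%, exact 95% interval 8.79 to 26.95%). They were looked at because the comparisons above leave these wells out and no B well had either gene (0 of 90, which allows a share of wells with a count of up to 3.33%). Of the 12, 5 were among the 29 NK-marker wells, 3 with Cxcr6 and 2 with Rora. Another 6 were among the 40 wells with fewer than 2 T genes, no Cd79a or Cd79b and fewer than 2 NK markers, and 3 of these had both genes. The last, with Rora, was among the 4 wells with both B and T genes. The 73 wells had a median of 1884.5 counts, against 2842 in the Cxcr6/Rora wells. Whether some are T cells with too few T gene counts to pass the rule was not tested.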

How the results depend on the processing

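None of the 24 named genes changed direction under the 26 alternatives run for them, and 31 of their values left the counting interval. These genes were picked for extreme ratios, and the same direction with equal weight per well, which is 1 of the alternatives, was required of them. The other alternatives reused the same wells and counts, so the lack of reversals is a description and no separate support. Leaving out wells with 2 or more NK markers, totals without Rn45s and Rn4.5s, and members with both genes only were chosen after seeing the data. No gene 2-fold higher became 2-fold lower in any of the 28 alternatives, or the reverse. The naive list's median of -1.46 was -1.31 with Cd79a and Cd79b not used, -1.78 with Cxcr6 alone and -1.62 with Rora alone as the choice, -1.83 and -1.71 after thinning to 1500 and 1000 counts, -2.10 when thinned to 1500 before the choice, -1.69 with equal weight per well, -1.61 with at least 40 counts, and -2.06 for wells with both genes, which are 25% of themselves plus the other T wells. With a plate left out it ran from -2.18 (plate 7) to -1.32 (plate 2). The number of genes past 2-fold moved by over 1.5 times under several settings, given here as percent higher and percent lower of the genes compared, against 9.97% and 8.89%. They were 9.49% and 10.1% of 1780 genes after thinning to 1500 counts, 8.16% and 11.4% at 1000, 9.40% and 9.72% of 1564 when thinned before the choice, 13.2% and 11.2% of 4910 with at least 10 counts, 8.02% and 6.74% of 1559 with at least 40, and 6.46% and 5.31% with 20 CPM added to both groups. With a plate left out they ran from 9.36% to 10.7% and from 8.45% to 9.43%. Thinning and the higher limit compare fewer genes by construction; the cause of the other shifts was not tested. No paired analysis was possible because replicate numbers only name single wells; matched by plate, 9.18% of genes were higher and 9.64% lower. At median depths of 2842 and 2212 counts per well, a gene's absence from a single well says little about the cell.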
